A study of Homo sapiens with 12 samples.

Results

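The genes described here are the D cyclins CCND1, CCND2 and CCND3, the E cyclins CCNE1 and CCNE2, and the kinases they activate, CDK2, CDK4 and CDK6. They were chosen by name, as 1 set of 8 genes, because CCND1, a target of the transcription factor RFX7, had a changed response to Nutlin-3a in these same data. Of the 8, 7 are listed in all 4 of the authors' deposited tables, out of 23195 genes in each of the tables on Nutlin-3a, 20026 and 19393 in the tables on siRFX7, and 19393 common to all of them. CCND2 was not analysed here, because no row carries its name. PolyA RNA was sequenced from HCT116, a human colorectal carcinoma line with intact p53, in 12 libraries. Cells were transfected either with siControl, the control siRNA, or with siRFX7, which targets RFX7, and then received DMSO, the solvent, or 10 µM Nutlin-3a for 24 h. Each siRNA was combined with each treatment, which gives 4 groups of 3 replicates, named below by siRNA and treatment (siControl DMSO and so on). All of them are transfected cells of a single tumour line, and the labels give neither the siRNA sequence nor how many siRNAs against RFX7 were used.

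D cyclins are made in response to growth signals and bind CDK4 or CDK6. The active kinases phosphorylate RB1 and its relatives, the pocket proteins, which then release E2F transcription factors. E2F factors raise the E cyclins, whose partner CDK2 phosphorylates RB1 further and starts DNA replication. Nutlin-3a blocks the binding of MDM2 to p53, and the stabilised p53 induces CDKN1A, which encodes the inhibitor p21. p21 inhibits CDK2 complexes, and the pocket proteins, left unphosphorylated, then hold E2F target genes down.

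The targeted gene and the drug were checked first. RFX7 was at 944 and 1332 normalized counts in siControl DMSO and siControl Nutlin-3a, and at 185 and 302 in the matching siRFX7 groups. MDM2, a p53 target, rose with Nutlin-3a from 4705 to 74982 normalized counts under siControl and from 6591 to 64905 under siRFX7. That is 15.9-fold and 9.85-fold, so the rise of MDM2 was itself smaller under siRFX7. The smaller rise started from a higher DMSO level and ended at a lower Nutlin-3a level. The log2 difference between the 2 rises of MDM2, siRFX7 minus siControl, was -0.69 (z test adjusted p 1.90e-12). Summed normalized counts per library were between 25913653 and 27405545 in the 4 groups. Of 8 epithelial and colon markers, 7 were listed, with summed levels of 115063 to 268845 normalized counts. CDX1 was not among them, and VIL1, an intestinal brush border gene, had a mean of only 8.0 normalized counts. Of 8 markers of other cell types, 4 were listed (VIM, COL1A1, COL1A2 and GFAP). Group levels were at hand for VIM and COL1A1 only, with sums of 366 to 581. COL1A2 and GFAP had means over all libraries of 1.42 and 2.14 normalized counts. The epithelial sum was higher in both Nutlin-3a groups, carried by the keratins KRT8, KRT18 and KRT19. EPCAM, in the same list, fell with Nutlin-3a from 8665 to 6077 normalized counts under siControl and from 9303 to 6019 under siRFX7. The part of these markers in the results below was not tested.

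Short stretches of promoter sequence are shown because the start regions of CCND3 and CDK4 hold letters that RFX factors or NF-Y are known to bind, and both genes differed between siRNAs in at least 1 treatment. Promoter windows of 300 bases (250 before the start and 50 after it, RefSeq, GRCh38.p14) were at hand for 4 of the 8 genes, namely CCND3 (3 starts), CCNE1 (1), CDK4 (1) and CDK6 (2). CCND1, CCND2, CCNE2 and CDK2 had no window. Each was searched on both strands for GTTGCC and GTTGCTA (spellings bound by RFX factors), TTTGGCGC, TTTCCCGC and TTTGGCGG (E2F), TTTGAA (the CHR element) and CCAAT (NF-Y). None of these 7 spellings contains another. Each sequence is written 5′ to 3′ on the minus strand, on which both genes lie, with the matching letters in capitals.
CCND3, GTTGCTA 32 bases before the start, chr6:41941822-41941851: agcattccacgGTTGCTAcatcgtcgcgag
CCND3, CCAAT 136 bases before the same start, chr6:41941927-41941956: gcgctcagcggcCCAATggggccgcgggag
CCND3, CCAAT read on the opposite strand, 64 bases before another start, chr6:41939252-41939281: caggctgctgtgATTGGctggcagggaagc
CDK4, GTTGCTA read on the opposite strand, 207 bases before the start, chr12:57752499-57752528: gtcacgtgtgaTAGCAACagatcacgtggc

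Of all 35116 promoter windows, 2.85% held GTTGCTA and 34.6% held CCAAT. The other spellings stood in 12.2% (GTTGCC), 0.652% (TTTGGCGC), 1.63% (TTTCCCGC), 0.652% (TTTGGCGG) and 15.2% (TTTGAA) of the windows. The remaining CCND3 window and the windows of CCNE1 and CDK6 held none of the 7, although CDK6 also differed between siRNAs in both treatments (-0.55 in DMSO and -0.77 in Nutlin-3a). CCND3 and CDK4, the 2 genes with GTTGCTA, moved in opposite directions with siRFX7 in Nutlin-3a (log2 fold changes of 0.64 and -0.29). A match describes letters in a window and says nothing of whether a factor binds there.

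The RNA levels of the genes differed widely, and their order changed with Nutlin-3a. A level is given here as the mean normalized count of a group, which was computed from the mean and the log2 fold changes per the authors' deposited tables. Its error is a model SD per library (n = 3), computed from the standard errors that the same tables give. Values per library were not used here, so no single replicate is shown. To compare genes with each other, levels were divided by the length of the merged exons in kb. Merged exons hold every annotated exon of a gene, including bases shared with other genes. Which transcripts the cells expressed was not determined. The model SD does not cover this, so the order between genes and the family shares below depend on these lengths. CCND1 was the most abundant in every group and CDK4 the next, at 4044 and 2289 normalized counts per kb in siControl DMSO. CDK2 (966) and CCNE1 (578) followed, and CDK6 (188), CCNE2 (185) and CCND3 (157) were lowest, the first 2 of these 3 not differing beyond 1 model SD. In siControl Nutlin-3a, the order was CCND1 (12321 per kb), CDK4 (1486), CCNE1 (455), CDK6 (387), CDK2 (219), CCND3 (133) and CCNE2 (4.16). CDK2 now stood below CCNE1 and CDK6, both of which it exceeded in DMSO. In siRFX7 DMSO, CCND1 (3672 per kb), CDK4 (2128), CDK2 (829) and CCNE1 (576) kept the order of siControl DMSO. CCND3 (226) was then above CCNE2 (159) and CDK6 (129), each apart by more than 1 model SD. In siRFX7 Nutlin-3a, CCND1 (6519 per kb), CDK4 (1214) and CCNE1 (424) led. CDK2 (244), CDK6 (226) and CCND3 (207) came next, and CCNE2 (1.68) was last. For CDK2 and CDK6, and for CDK6 and CCND3, the ranges of mean ± 1 model SD met. By mean count, CCND1 ranked 54 among the 23195 genes.

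**Figure D1:**
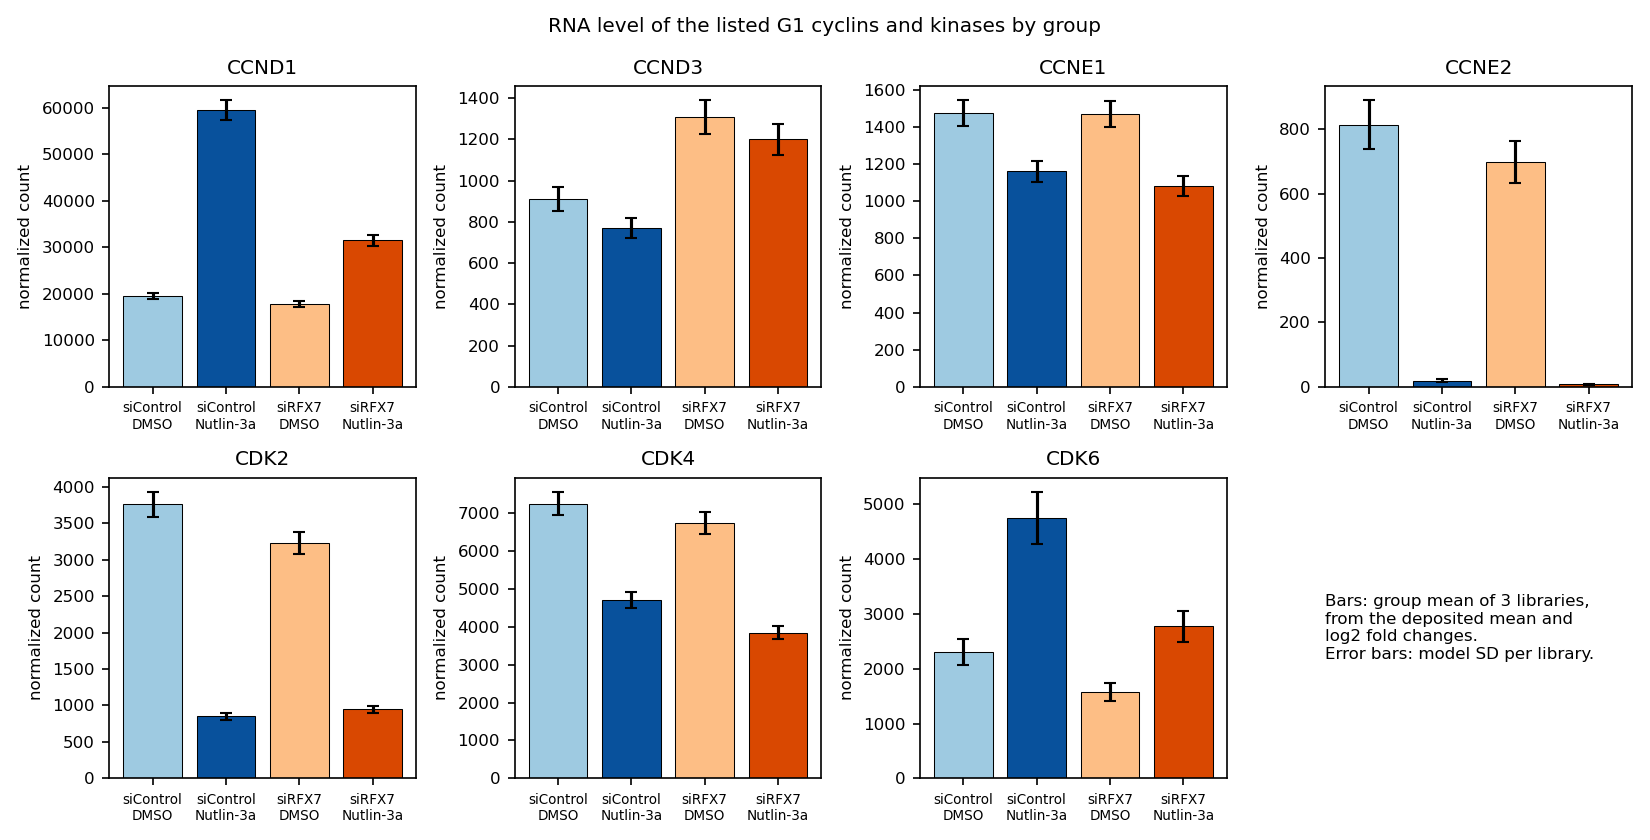
Mean normalized count of each listed gene (vertical axis, linear from 0) in the 4 groups. Bars are group means of 3 libraries and error bars the model SD per library. CCND1 stands at 59509 in siControl Nutlin-3a against 31488 in siRFX7 Nutlin-3a, and CCNE2 falls to 18.3 and 7.41 with Nutlin-3a.

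CCND1 (ENSG00000110092, GRCh38, chromosome 11 from 69641087 to 69654474, plus strand) encodes cyclin D1, the main D cyclin of many epithelial cells. Its level was 19533 ± 696 normalized counts with siControl in DMSO, 59509 ± 2092 with siControl in Nutlin-3a, 17738 ± 633 with siRFX7 in DMSO and 31488 ± 1114 with siRFX7 in Nutlin-3a. Both Nutlin-3a groups lay above both DMSO groups, and the siRFX7 Nutlin-3a group lay between siControl Nutlin-3a and the DMSO groups. The Nutlin-3a groups were 3.05-fold (95% interval 2.88 to 3.22) above DMSO under siControl and 1.78-fold (1.68 to 1.88) under siRFX7, from the authors' deposited tables. On the log2 scale these differences were 1.61 (SE 0.04) and 0.83 (SE 0.04) per the authors' deposited tables. Set against siControl DMSO as 100%, the level was 305% with Nutlin-3a alone, 90.8% with siRFX7 alone and 161% with both. The siRFX7 groups differed from siControl by -0.14 (SE 0.04) in DMSO and by -0.92 (SE 0.04) in Nutlin-3a per the authors' deposited tables. The difference between the Nutlin-3a responses, siRFX7 minus siControl, was -0.78 (SE 0.06, 95% interval -0.90 to -0.66). CCND1 was chosen for these contrasts, so no test of them is given. The smallest of them, that of siRFX7 in DMSO, was -0.08 with equal total counts. At its 3′ end it shares 497 exon bases (10.3% of its exons) with LTO1 on the opposite strand, which had a mean of only 542 normalized counts.

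CCND3 (ENSG00000112576, chromosome 6 from 41934933 to 42050357, minus strand) encodes cyclin D3, best known from lymphoid cells. It was higher with siRFX7 in both treatments, the opposite direction to CCND1. Its level was 911 ± 58.7 normalized counts with siControl in DMSO, 770 ± 50.8 with siControl in Nutlin-3a, 1309 ± 80.9 with siRFX7 in DMSO and 1202 ± 75.0 with siRFX7 in Nutlin-3a. Both siRFX7 groups lay above both siControl groups by more than their model SDs. With siRFX7 it rose by 0.52 (SE 0.07, DESeq2 adjusted p 5.22e-11) in DMSO and by 0.64 (SE 0.08, DESeq2 adjusted p 1.31e-15) in Nutlin-3a per the authors' deposited tables. The latter is 1.56-fold (95% interval 1.41 to 1.73). The Nutlin-3a effect was small, -0.24 (SE 0.08, DESeq2 adjusted p 0.0050) under siControl and -0.12 (SE 0.07, DESeq2 adjusted p 0.178) under siRFX7 per the authors' deposited tables. With equal total counts the latter was called (-0.18, adjusted p 0.0384). The test of the difference between these responses gave 0.12 (95% interval -0.09 to 0.33, z test adjusted p 0.693), so no difference was shown.

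Because CCND1 and CCND3 moved apart, the share of CCND3 in their summed RNA per kb differed between groups. Under siControl it was 3.74% in DMSO and 1.07% with Nutlin-3a, and under siRFX7 it was 5.79% and 3.08%. The sum itself was 4201 normalized counts per kb in DMSO and 12454 with Nutlin-3a under siControl, and 3898 and 6726 under siRFX7. In every group CCND1 therefore made up over 94% of the listed D cyclin RNA, and the sum followed it. The shares combine group means and carry no error of their own.

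**Figure D2:**
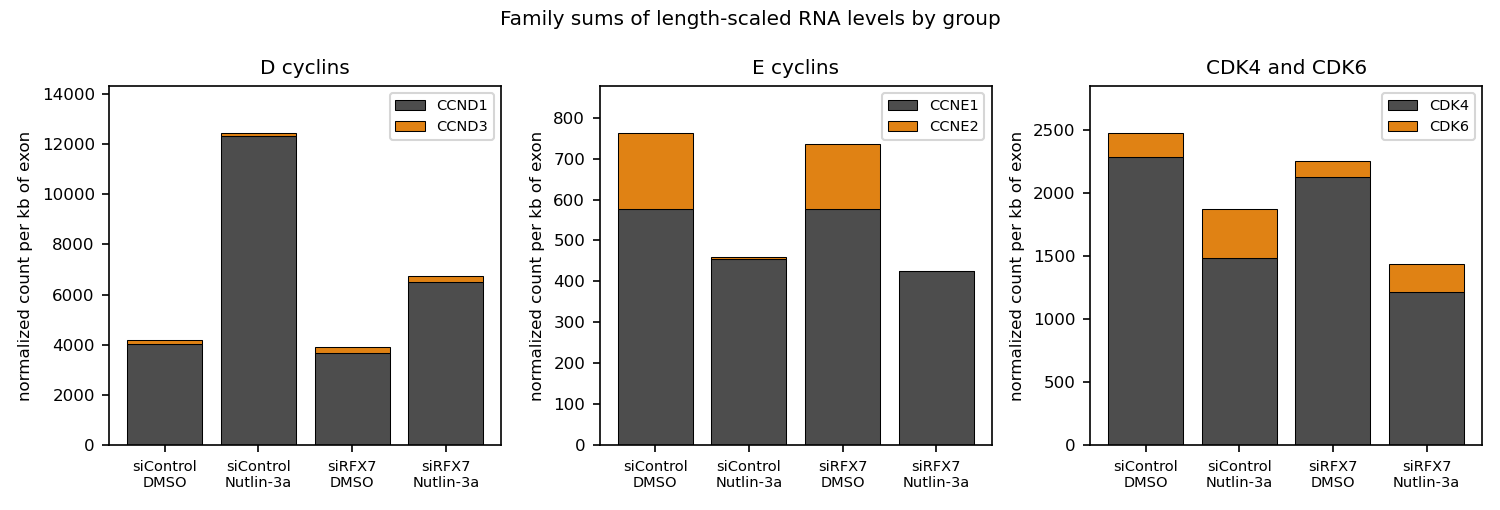
Summed normalized counts per kb of exon (vertical axis, linear from 0) of the listed D cyclins, the E cyclins, and CDK4 with CDK6, in the 4 groups. Each bar is stacked by gene and has no error bar. CCND1 fills nearly the whole D cyclin bar, CCNE2 goes from 24.3% to 0.906% of the E cyclin bar with Nutlin-3a under siControl, and CDK6 from 7.60% to 20.7% of its bar.

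The E cyclins differed strongly from each other in their response to Nutlin-3a. CCNE2 (ENSG00000175305, chromosome 8 from 94879770 to 94896678, minus strand) encodes cyclin E2. Its level was 815 ± 75.3 normalized counts with siControl in DMSO, 18.3 ± 4.55 with siControl in Nutlin-3a, 699 ± 65.2 with siRFX7 in DMSO and 7.41 ± 2.79 with siRFX7 in Nutlin-3a. The Nutlin-3a groups thus held 2.24% (95% interval 1.66% to 3.03%) of the DMSO level under siControl and 1.06% (0.683% to 1.65%) under siRFX7, from the authors' deposited tables. Its log2 fold changes were -5.48 (SE 0.22, DESeq2 adjusted p 5.24e-134) and -6.56 (SE 0.32, DESeq2 adjusted p 1.73e-89) per the authors' deposited tables. Counted from the largest fall, these are places 17 and 26 of 23195 genes. In bulk RNA, fewer cells with a transcript and less of it in each cell cannot be told apart.

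With siRFX7, CCNE2 fell by 1.30 (SE 0.38, DESeq2 adjusted p 0.00317) in Nutlin-3a, where its counts were lowest, per the authors' deposited table. In DMSO the value was -0.22 (SE 0.11, DESeq2 adjusted p 0.102) per the authors' deposited table. The difference between its Nutlin-3a responses was -1.08 (95% interval -1.85 to -0.31, z test adjusted p 0.0786), which missed the threshold after adjustment over all genes. The model SD was 24.9% of the mean in siControl Nutlin-3a and 37.7% in siRFX7 Nutlin-3a, against 9.23% and 9.34% in the DMSO groups. CCNE2 also shares 1629 exon bases (37.0% of its exons) with INTS8 on the opposite strand, which had a mean of 2925 normalized counts and log2 fold changes of -0.21 and -0.14 with Nutlin-3a per the authors' deposited tables. The strand setting of the counting is not given in the sources used here, so reads from the shared bases may be from either gene.

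CCNE1 (ENSG00000105173, chromosome 19 from 29811898 to 29824308, plus strand) encodes cyclin E1, the other activator of CDK2 in late G1. Its level was 1473 ± 69.6 normalized counts with siControl in DMSO, 1161 ± 57.0 with siControl in Nutlin-3a, 1468 ± 69.4 with siRFX7 in DMSO and 1082 ± 53.8 with siRFX7 in Nutlin-3a. The DMSO groups differed by less than the model SD, and both Nutlin-3a groups were lower. CCNE1 fell with Nutlin-3a by 0.34 (SE 0.06, DESeq2 adjusted p 8.47e-09) under siControl and fell by 0.44 (SE 0.06, DESeq2 adjusted p 9.33e-14) under siRFX7 per the authors' deposited tables. The siRFX7 effect was -0.00 in DMSO (95% interval -0.11 to 0.10, DESeq2 adjusted p 0.964) and -0.10 in Nutlin-3a (-0.22 to 0.01, DESeq2 adjusted p 0.194) per the authors' deposited tables, the first turning to above 0 under other scalings. For the difference between its Nutlin-3a responses the value was -0.10 (95% interval -0.26 to 0.06, z test adjusted p 0.655). The Nutlin-3a log2 fold change of CCNE2 minus that of CCNE1 was -5.13 under siControl and -6.12 under siRFX7. In siControl DMSO, CCNE2 made up 24.3% of the summed E cyclin RNA per kb, and in siRFX7 DMSO 21.6%. With Nutlin-3a its share was 0.906% and 0.395%. The summed E cyclin RNA went from 763 to 459 normalized counts per kb with Nutlin-3a under siControl, and from 735 to 426 under siRFX7.

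CDK2 (ENSG00000123374, chromosome 12 from 55966769 to 55972784, plus strand) encodes the partner kinase of the E and A cyclins. Its level was 3762 ± 170 normalized counts with siControl in DMSO, 851 ± 46.3 with siControl in Nutlin-3a, 3227 ± 148 with siRFX7 in DMSO and 949 ± 50.6 with siRFX7 in Nutlin-3a. The siRFX7 group was the lower one in DMSO and the higher one in Nutlin-3a. With Nutlin-3a, CDK2 kept 22.6% (95% interval 20.9% to 24.5%) of the DMSO level under siControl and 29.4% (27.2% to 31.8%) under siRFX7, from the authors' deposited tables. On the log2 scale it fell by 2.14 (SE 0.06, DESeq2 adjusted p 5.01e-286) and by 1.77 (SE 0.06, DESeq2 adjusted p 2.76e-198) per the authors' deposited tables. The fall was smaller under siRFX7, by 0.38 (SE 0.08, 95% interval 0.21 to 0.54, z test adjusted p 2.94e-04). With siRFX7 in DMSO, CDK2 fell by 0.22 (SE 0.05, DESeq2 adjusted p 2.79e-04) per the authors' deposited table. In Nutlin-3a it was 0.16 higher (SE 0.06, DESeq2 adjusted p 0.0497) per the authors' deposited table, a call that was lost with median centring (0.15, adjusted p 0.0559). CDK2 shares 565 exon bases (14.5% of its exons) with AC025162.1 and 89 with PMEL on the opposite strand, with mean normalized counts of 3.25 and 80.8.

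CDK4 (ENSG00000135446, chromosome 12 from 57747727 to 57756013, minus strand) encodes a partner kinase of the D cyclins. Its level was 7252 ± 311 normalized counts with siControl in DMSO, 4707 ± 206 with siControl in Nutlin-3a, 6742 ± 289 with siRFX7 in DMSO and 3845 ± 170 with siRFX7 in Nutlin-3a. Both Nutlin-3a groups lay below both DMSO groups, and the siRFX7 Nutlin-3a group was lowest. CDK4 fell with Nutlin-3a by 0.62 (SE 0.05, DESeq2 adjusted p 3.39e-33) under siControl and fell by 0.81 (SE 0.05, DESeq2 adjusted p 1.11e-54) under siRFX7 per the authors' deposited tables. With siRFX7 it fell by 0.29 (SE 0.05, DESeq2 adjusted p 2.74e-07) in Nutlin-3a and was at -0.11 (SE 0.05, DESeq2 adjusted p 0.106) in DMSO per the authors' deposited tables. The difference between its Nutlin-3a responses was -0.19 (95% interval -0.33 to -0.04, z test adjusted p 0.113). It passed the threshold with equal total counts (-0.22, adjusted p 0.0472) and with median centring (-0.22, adjusted p 0.0498). CDK4 shares 1369 exon bases (43.2% of its exons) with TSPAN31 on the opposite strand, which had a mean of 314 normalized counts. TSPAN31 had log2 fold changes of 0.49 and 0.02 with Nutlin-3a and of 0.56 and 0.10 with siRFX7 per the authors' deposited tables, where those of CDK4 were below 0. The value of 0.02 has no fixed direction, since equal total counts shifts it by -0.054. The processed pseudogene CDK4P1 is listed as well, and reads could be split between it and CDK4.

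CDK6 (ENSG00000105810, chromosome 7 from 92604921 to 92836594, minus strand) encodes the other partner kinase of the D cyclins, and it moved against CDK4 with Nutlin-3a. Its level was 2307 ± 234 normalized counts with siControl in DMSO, 4749 ± 477 with siControl in Nutlin-3a, 1580 ± 162 with siRFX7 in DMSO and 2776 ± 281 with siRFX7 in Nutlin-3a. As for CCND1, the level was highest in siControl Nutlin-3a and lowest in siRFX7 DMSO. CDK6 rose with Nutlin-3a by 1.04 (SE 0.12, DESeq2 adjusted p 2.11e-17) under siControl and by 0.81 (SE 0.12, DESeq2 adjusted p 9.01e-11) under siRFX7 per the authors' deposited tables. With siRFX7 it fell by 0.55 (SE 0.12, DESeq2 adjusted p 5.20e-05) in DMSO and by 0.77 (SE 0.12, DESeq2 adjusted p 1.64e-09) in Nutlin-3a per the authors' deposited tables. The responses to Nutlin-3a differed by -0.23 (95% interval -0.56 to 0.10, z test adjusted p 0.587), so a difference was not shown, and the interval reaches -0.56. Of the listed genes, CDK6 had the largest variation between replicates implied by the standard errors, a CV of 9.95% beyond counting, against 3.49% for CCND1. CDK6 made up 7.60% of the CDK4 and CDK6 RNA per kb in siControl DMSO and 20.7% in siControl Nutlin-3a. Under siRFX7 the shares were 5.71% in DMSO and 15.7% in Nutlin-3a. These shares rest on merged exon lengths of 12260 bases for CDK6 and 3168 for CDK4. Before division by length, CDK6 and CDK4 were at 4749 and 4707 normalized counts in siControl Nutlin-3a.

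Set side by side, the members of each family did not move alike. With Nutlin-3a, CCND1 was above CCND3 by 1.85 under siControl and 0.95 under siRFX7, as differences of log2 fold changes. CDK6 was above CDK4 by 1.66 and 1.62. With siRFX7 in Nutlin-3a, CCND1 was below CCND3 by 1.56, since one was lower and the other higher. CDK6 and CDK4 were both lower there, and CDK6 by 0.48 more than CDK4. These are differences between genes measured in the same libraries and were not tested.

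**Figure D3:**
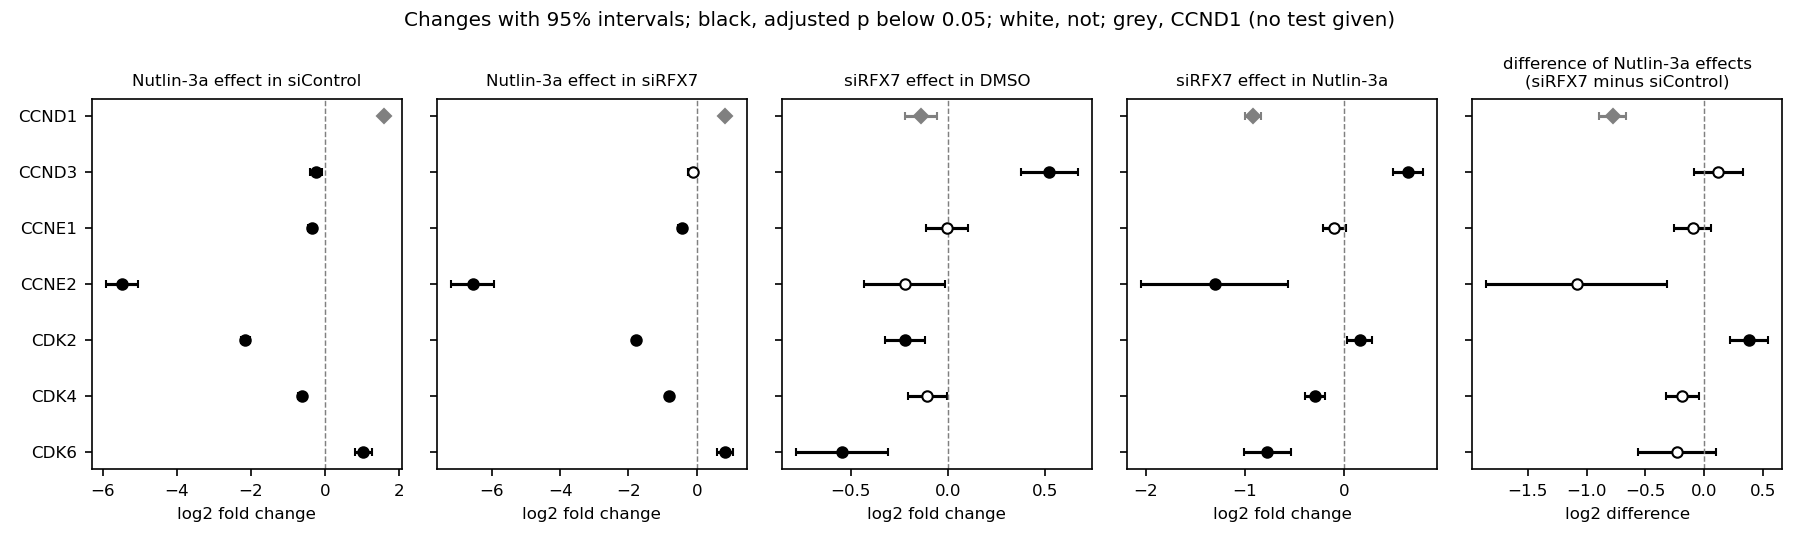
Log2 fold change of each listed gene (horizontal axis, a separate scale in each panel) with its 95% interval, for the effect of Nutlin-3a under each siRNA, the effect of siRFX7 in each treatment, and the difference between the Nutlin-3a effects. Black points passed an adjusted p of 0.05, white points did not, and CCND1 is grey because it was chosen for this pattern. CCNE2 stands at -5.48 and -6.56 with Nutlin-3a, CCND3 stands alone above 0.5 with siRFX7, and CDK2 is above 0 in the last panel.

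Counted at an adjusted p below 0.05, Nutlin-3a raised 2 of the 7 listed genes (CCND1 and CDK6) and lowered 5 under siControl per the authors' deposited table. Of all genes in that table, 22.0% were called higher and 21.2% lower. Under siRFX7, 2 were higher, 4 were lower and CCND3 was not called per the authors' deposited table (it was with equal total counts), against 21.7% and 19.7% of all genes. With siRFX7 in DMSO, 1 gene was higher (CCND3) and 3 were lower (CCND1, CDK2 and CDK6) per the authors' deposited table, against 13.5% and 15.5% of all genes. CCND1 stood at -0.08 there with equal total counts and was then no longer counted. In Nutlin-3a, 2 were higher (CCND3 and CDK2) and 4 lower with siRFX7 per the authors' deposited table, against 15.0% and 13.6% of all genes. The call of CDK2 there was lost with median centring. By the z test, the Nutlin-3a response differed for 1 of the 6 genes other than CCND1, namely CDK2, above 0, where 3.28% of all genes were called above 0 and 2.92% below. With equal total counts and with median centring, CDK4 was called as well, below 0. Without CCND1, Nutlin-3a raised 1 of 6 genes and lowered 5 under siControl, and raised 1 and lowered 4 under siRFX7. The siRFX7 counts were then 1 higher and 2 lower in DMSO and 2 higher and 3 lower with Nutlin-3a. The choice of genes rested on these contrasts, and CCND1 was chosen for them, so nothing is read from the counts. The Nutlin-3a and siRFX7 comparisons share groups, and so their values are not independent of each other.

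The 7 CDK inhibitors measured here bind CDK4 and CDK6 (the INK4 group) or cyclin-CDK2 complexes (the CIP/KIP group). With Nutlin-3a, 2 rose and 5 fell under siControl, and 2 rose and 4 fell under siRFX7, per the authors' deposited tables, with median log2 fold changes of -0.73 and -0.46 against 0.02 and -0.02 over all genes. CDKN1A went from 5493 to 121149 normalized counts with Nutlin-3a under siControl, and from 13389 to 154897 under siRFX7. It rose by 4.46 and by 3.53 per the authors' deposited tables, the smaller rise starting from the higher DMSO level, and the difference was -0.93 (z test adjusted p 7.17e-10). With siRFX7 it rose by 1.29 in DMSO and by 0.35 in Nutlin-3a (DESeq2 adjusted p 5.01e-39 and 0.00117) per the authors' deposited tables. CDKN2C, an INK4 inhibitor also called p18, had the largest fall of the list, from 513 to 18.6 normalized counts under siControl and from 390 to 5.72 under siRFX7. That is a log2 fold change of -4.79 and -6.09 (DESeq2 adjusted p 3.19e-84 and 2.25e-56) per the authors' deposited tables. With siRFX7 the list held 1 higher (CDKN1A) and 6 lower genes in DMSO and 1 higher and 4 lower in Nutlin-3a per the authors' deposited tables. Among all genes, 13.5% were called higher and 15.5% lower for the first comparison, and 15.0% higher and 13.6% lower for the second. For Nutlin-3a itself, 22.0% were higher and 21.2% lower under siControl, against 21.7% and 19.7% under siRFX7. List counts here and below were not tested against these shares. CDKN1C, which encodes p57, was the lowest of the inhibitors with siRFX7 in DMSO (-0.54, DESeq2 adjusted p 1.56e-04) per the authors' deposited table.

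The pocket proteins hold E2F factors in check. Of 3, Nutlin-3a raised 1 (RB1) and lowered 1 (RBL1) under each siRNA per the authors' deposited tables. Over all genes, 22.0% were called higher and 21.2% lower under siControl, and 21.7% and 19.7% under siRFX7. RB1 was at 2205 and 2572 normalized counts in DMSO and Nutlin-3a under siControl and at 2182 and 3345 under siRFX7, so it was highest with both siRFX7 and Nutlin-3a. Its rise was 0.22 (DESeq2 adjusted p 0.0274) under siControl and 0.62 (DESeq2 adjusted p 1.02e-11) under siRFX7 per the authors' deposited tables. The former was lost with equal total counts (0.20, adjusted p 0.0534). The difference of 0.39 passed the z test (adjusted p 0.0272), and missed it with equal total counts (0.36, adjusted p 0.0519) and median centring (0.37, adjusted p 0.0502). RBL1, which encodes p107 and is itself an E2F target, fell from 962 to 137 normalized counts with Nutlin-3a under siControl and from 720 to 127 under siRFX7. With siRFX7, RBL1 fell by 0.42 in DMSO (DESeq2 adjusted p 0.0116) and RB1 rose by 0.38 in Nutlin-3a (DESeq2 adjusted p 1.08e-04) per the authors' deposited tables. The list median was 0.14 under siControl and 0.15 under siRFX7 with Nutlin-3a, and -0.02 and 0.01 with siRFX7 in DMSO and in Nutlin-3a.

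Of 10 E2F and DP factors, which carry out the transcription that the pocket proteins restrain, Nutlin-3a raised 1 and lowered 6 under siControl and raised 2 and lowered 4 under siRFX7 per the authors' deposited tables. The activator E2F1 fell most, from 1450 to 61.3 normalized counts under siControl and from 1063 to 40.7 under siRFX7, or log2 fold changes of -4.57 and -4.71 (DESeq2 adjusted p 4.95e-184 and 3.99e-158) per the authors' deposited tables. Its difference was -0.14 (z test adjusted p 0.876). TFDP2, a dimer partner of E2Fs, rose by 0.88 and 0.54 per the authors' deposited tables, and the difference of -0.34 passed the z test (adjusted p 0.0143). The other partner, TFDP1, fell by 0.92 and by 0.70 per the authors' deposited tables, and its difference was 0.22 (z test adjusted p 0.0101). E2F7, an atypical E2F that represses and is induced by p53, was at 1024 and 1092 normalized counts in DMSO and Nutlin-3a under siControl and at 898 and 1358 under siRFX7. The last group was the highest, and the response was 0.09 (DESeq2 adjusted p 0.492) under siControl and 0.60 (DESeq2 adjusted p 3.61e-09) under siRFX7 per the authors' deposited tables. The difference was 0.50 (z test adjusted p 0.00632). With siRFX7, 2 factors were higher and 4 lower in DMSO, where E2F5 rose by 0.48 and E2F8 fell by 0.52 per the authors' deposited table (DESeq2 adjusted p 2.64e-05 and 4.79e-05). In Nutlin-3a, 2 were higher and 3 lower with siRFX7, E2F1 being lowest at -0.59 (DESeq2 adjusted p 0.0167) per the authors' deposited table. The list medians were -0.24 and -0.10 with Nutlin-3a under siControl and siRFX7, and -0.17 and 0.08 with siRFX7 in DMSO and in Nutlin-3a.

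Of 5 genes for CDK activation and folding, CDC25A moved most. It encodes the phosphatase that removes inhibitory phosphates from CDK2. CDC25A fell with Nutlin-3a, with log2 fold changes of -2.96 under siControl and -2.75 under siRFX7 (DESeq2 adjusted p 4.74e-270 and 7.26e-213) per the authors' deposited tables. It fell by 0.45 with siRFX7 in DMSO (DESeq2 adjusted p 4.06e-10) per the authors' deposited table. CDC37, a co-chaperone that loads CDK4 and other kinases onto HSP90, rose with Nutlin-3a by 0.22 and by 0.32 (DESeq2 adjusted p 4.53e-05 and 1.20e-09) per the authors' deposited tables. CDK7, the kinase of the CDK-activating complex, rose by 0.45 under siControl (DESeq2 adjusted p 3.38e-06) and was at 0.19 under siRFX7 (DESeq2 adjusted p 0.0766) per the authors' deposited tables. The difference for CDK7 was -0.26 (z test adjusted p 0.293), so the 2 responses were not shown to differ. MNAT1, its assembly factor, rose with siRFX7 in Nutlin-3a by 0.25 (DESeq2 adjusted p 0.0188) per the authors' deposited table. In counts, 2 rose and 1 fell with Nutlin-3a under siControl, and 1 rose and 1 fell under siRFX7, per the authors' deposited tables. With siRFX7, 2 fell in DMSO and 1 rose in Nutlin-3a per the authors' deposited tables. The difference of responses was called for 0 of 5 by the z test, and for 1 at an unadjusted p below 0.05. The list medians were 0.09 and 0.17 with Nutlin-3a, 0.02 and -0.07 with siRFX7, and 0.10 for the difference.

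Of 12 genes for turnover of G1 cyclins and of their inhibitors, 3 rose and 5 fell with Nutlin-3a under each siRNA per the authors' deposited tables. Of all genes, 22.0% were called higher and 21.2% lower under siControl, against 21.7% and 19.7% under siRFX7. FBXW7, the F-box protein that targets cyclin E for degradation, was at 766 and 1328 normalized counts in siControl DMSO and Nutlin-3a, and at 857 and 1809 in the siRFX7 groups. It rose by 0.79 and 1.08 (DESeq2 adjusted p 4.67e-33 and 1.07e-64) per the authors' deposited tables. The difference was 0.29 (z test adjusted p 0.0296), which missed the threshold with equal total counts (0.26, adjusted p 0.0695) and median centring (0.26, adjusted p 0.0668). SKP2, the F-box protein for p27, and its cofactor CKS1B both fell. The log2 fold changes were -1.27 and -1.22 for SKP2 (DESeq2 adjusted p 1.10e-101 and 3.25e-92) per the authors' deposited tables. For CKS1B they were -1.87 and -2.16 (DESeq2 adjusted p 6.18e-27 and 1.03e-34) per the authors' deposited tables. With siRFX7 in DMSO, SKP2 fell by 0.15 (DESeq2 adjusted p 0.0221) per the authors' deposited table, a call lost with equal total counts (-0.09, adjusted p 0.199) and median centring (-0.12, adjusted p 0.0929). CUL4B, a cullin scaffold of the ligase that degrades D cyclins, rose with siRFX7 in DMSO by 0.37 (DESeq2 adjusted p 1.64e-14) per the authors' deposited table. Its Nutlin-3a responses were 0.05 and -0.25 (DESeq2 adjusted p 0.451 and 2.16e-07) per the authors' deposited tables and differed by -0.29 (z test adjusted p 2.47e-04). With siRFX7, 1 gene was higher and 2 lower in DMSO and 1 higher in Nutlin-3a per the authors' deposited tables. The list medians stayed near 0, at -0.05 and -0.19 with Nutlin-3a and 0.03 and 0.02 with siRFX7.

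The 14 E2F-driven G1/S genes encode cyclin A, replication licensing and replication factors, and nearly all fell with Nutlin-3a. All 14 fell under siControl and 13 under siRFX7 per the authors' deposited tables, with median log2 fold changes of -3.35 and -3.40. Over all genes, 21.2% and 19.7% were called lower. CCNA2, which encodes cyclin A2, the later partner of CDK2, fell most, with log2 fold changes of -5.23 and -6.06 per the authors' deposited tables. That is 2.67% and 1.5% of the DMSO level, close to the shares left of CCNE2. The difference for CCNA2 was -0.83 (z test adjusted p 3.59e-06). PCNA, the replication clamp and also a p53 target, fell least, by 0.34 under siControl (DESeq2 adjusted p 1.15e-06), and was at 0.05 under siRFX7 (DESeq2 adjusted p 0.574) per the authors' deposited tables. The difference for PCNA was 0.39 (z test adjusted p 0.00100). Among the subunits of the MCM helicase, the difference between responses was below 0 for MCM7 (-0.68, z test adjusted p 1.07e-15) and MCM2 (-0.36, z test adjusted p 5.97e-04). For MCM3 it was above 0 (0.31, z test adjusted p 6.74e-04), so members of 1 complex did not share a direction. With siRFX7 in DMSO, 11 of the 14 fell per the authors' deposited table, with a median of -0.39 against -0.00 over all genes. CDT1, a licensing factor, fell most there (-0.73, DESeq2 adjusted p 3.57e-24) per the authors' deposited table. In Nutlin-3a, 10 fell and 2 rose with siRFX7 per the authors' deposited table, with a median of -0.44 against 0.00 over all genes. Of all genes, 13.5% were called higher and 15.5% lower with siRFX7 in DMSO, and 15.0% and 13.6% in Nutlin-3a.

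**Figure D4:**
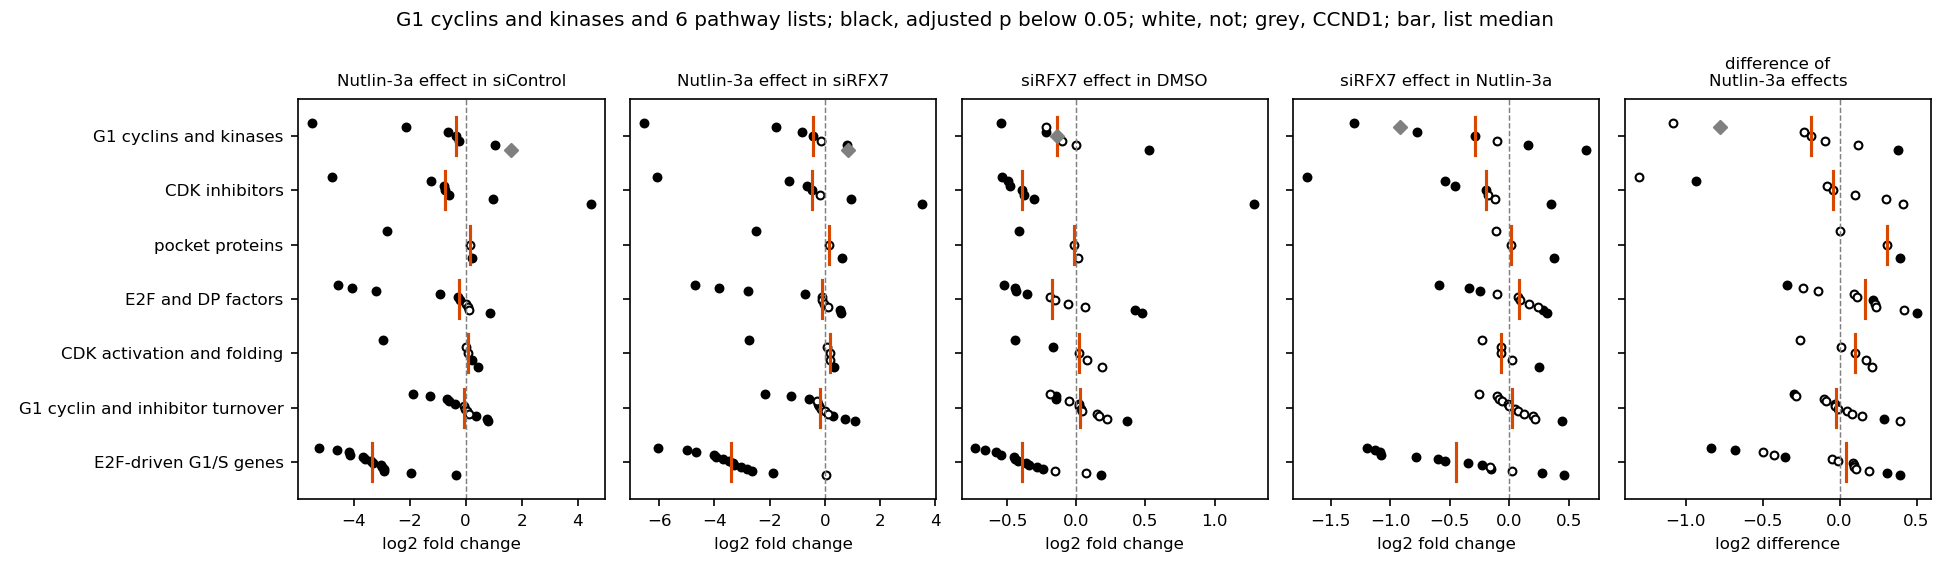
Log2 fold changes (horizontal axis, a separate scale in each panel) of the listed G1 cyclins and kinases and of 6 pathway lists in the 4 comparisons, and the difference of the Nutlin-3a responses. Each point is a gene, black where its adjusted p was below 0.05, white where not, grey for CCND1, and the orange bar is the median of the row. The bottom row has the lowest medians with Nutlin-3a, -3.35 and -3.40, and its highest gene, PCNA, is at 0.05 under siRFX7. Each other row holds genes on both sides of 0 there, with medians from -0.73 to 0.17.

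The median over the 7 listed members was -0.34 with Nutlin-3a under siControl and -0.44 under siRFX7, against 0.02 and -0.02 over all genes. With siRFX7 it was -0.14 in DMSO and -0.29 in Nutlin-3a. Under siControl the E2F-driven list ran from -5.23 to -0.34, a range that held CDK2 (-2.14), while CCNE2 (-5.48) lay beyond its lower end. CCNE1, CDK4 and CCND3 fell by less than 1 on the log2 scale under siControl. Scaling the groups differently moved log2 fold changes by at most 0.057, so values smaller than that have no fixed direction.

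**Figure D5:**
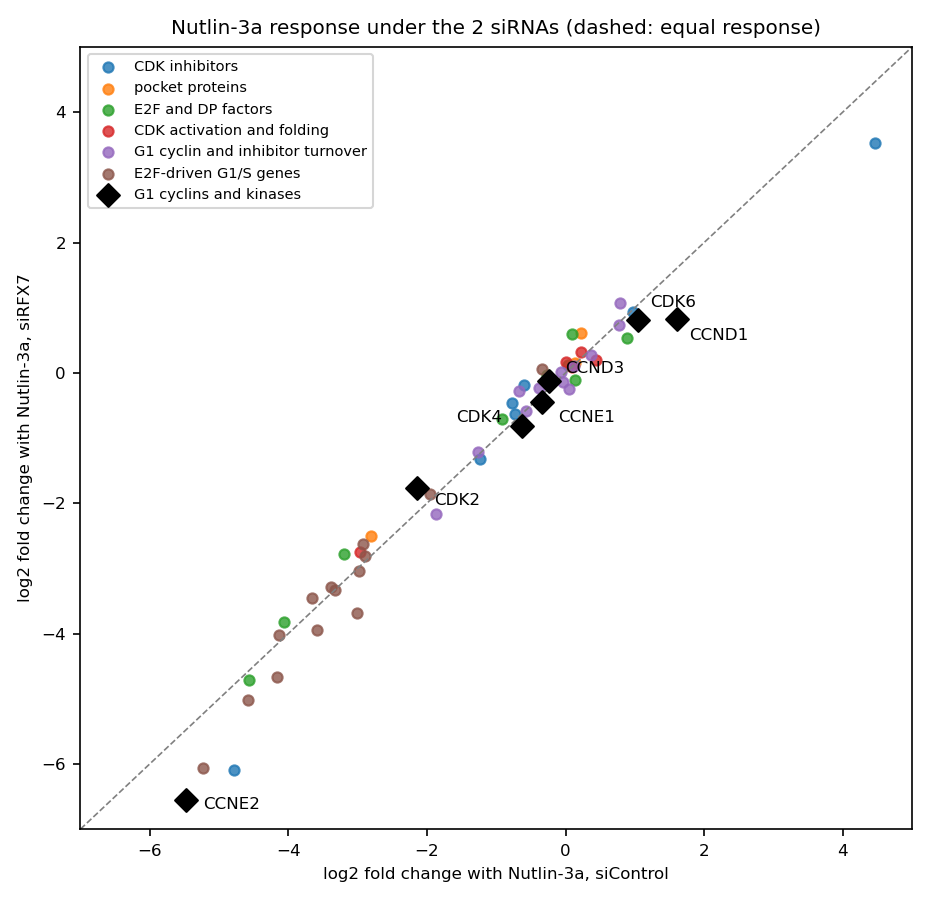
Log2 fold change with Nutlin-3a under siControl (horizontal axis) and under siRFX7 (vertical axis). Black diamonds are the listed G1 cyclins and kinases, coloured points the genes of 6 pathway lists, and the dashed line marks equal responses. CCND1 lies below the line (1.61 and 0.83), CDK2 above it (-2.14 and -1.77), and CCNE2 at the lower left (-5.48 and -6.56).

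Genes with the most similar pattern were sought for CCND1, which was chosen for its response, and for CDK2. Among the listed members other than CCND1, only CDK2 had a Nutlin-3a response called different between siRNAs by the z test on the deposited values. Likeness was the Euclidean distance over the 4 log2 fold changes, among 12463 genes listed in all tables with a mean of at least 100 normalized counts. The 5 nearest to CCND1 were SLC27A1 (distance 0.34), GPM6A (0.38), OR51B4 (0.42), ZSWIM4 (0.47) and KDM6B (0.48). SLC27A1, a fatty acid transporter, had Nutlin-3a responses of 1.40 and 0.62 and siRFX7 effects of -0.26 and -1.04 per the authors' deposited tables. KDM6B, a histone demethylase, had Nutlin-3a responses of 1.30 and 0.77 and siRFX7 effects of -0.49 and -1.02 per the authors' deposited tables. No gene thus lay closer to CCND1 than 0.34. The 5 nearest to CDK2 were closer, namely DBF4P1 (0.016), PRIMPOL (0.13), NCAPH2 (0.18), TUBAP2 (0.18) and UBR7 (0.20). DBF4P1 and TUBAP2 are processed pseudogenes that can share reads with their parent genes, so their values are uncertain. PRIMPOL, a primase and polymerase, had Nutlin-3a responses of -2.07 and -1.81 and siRFX7 effects of -0.12 and 0.14 per the authors' deposited tables. NCAPH2, a subunit of condensin II, had Nutlin-3a responses of -2.17 and -1.77 and siRFX7 effects of -0.36 and 0.04 per the authors' deposited tables. When the largest single difference was used as the measure of likeness, 3 of the 5 genes were again among the nearest for each of CCND1 and CDK2. The order describes these 4 comparisons, which share groups, and was not tested.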

How the data were processed

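Per the submitters' processing notes, reads were handled with bcl2fastq 2.20.0.422, Trimmomatic 0.39, FastQC 0.11.9, cutadapt 2.10, SAMtools 1.10 and Picard on hg38, and featureCounts 1.6.5 and DESeq2 1.20.0 are named; the aligner, annotation and strand setting are not given in the sources used here. PolyA libraries started from 500 ng of total RNA, per the labels' protocols. The 4 deposited tables hold, per the file headers, a mean normalized count (a signal, identical in all 4 tables, over all 12 libraries), a log2 fold change and its standard error on the log2 scale, a test statistic (a score) and p-values with their adjusted values, which were checked to be Benjamini-Hochberg adjusted over the listed genes.

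No count test was run, because values per library were not used here; the authors' deposited DESeq2 statistics were taken as they are, called at an adjusted p below 0.05. The siRFX7 fold changes were taken as siRFX7 over siControl, since the 4 tables then close to within 1.29e-14 (median error 0.374 the other way). Group means were solved from the mean and 3 independent fold changes with equal weight per group. The dispersion implied by the standard errors gave the model SD, and agreed between the 4 tables to a median spread of 1.18% for means of at least 100. The difference of Nutlin-3a responses had a two-sided z test (SciPy 1.17.1), adjusted by Benjamini-Hochberg over 23195 genes and run on simulated data as well. The z test treats the standard errors as known. The simulation drew normal noise with those same errors, so it cannot show the error rate for 3 libraries per group. Coordinates and exon lengths are from GENCODE 29 (GRCh38), whose gene IDs matched 23164 of the 23195 genes.

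The labels do not say that replicates were separate cultures, so p-values measure the spread between these samples, which may be technical. The members and lists were chosen with earlier results of these data known. Named genes are all members, RFX7, MDM2 and CDKN1A, the called gene with the largest rise and fall of each list in each comparison, any list gene called by the difference test, and the 5 nearest patterns; 1 gene that this rule names is not reported here. Python 3.11.15, NumPy 2.4.6, pandas 2.3.3 and matplotlib 3.10.9 were used. Alternatives were another threshold, a minimum fold change, other scalings and a filter on low means.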

Additional observations from a re-analysis of the deposited data

Results flagged for a closer look

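Of the 57 listed members and pathway genes other than CCND1, 13 had a Nutlin-3a response that differed between siRFX7 and siControl at an adjusted p below 0.05 by the z test, against 1437 of all 23195 genes. CCND1 (-0.78) was chosen for its response, and its value is a description. Among the other members it was CDK2 (0.38). Among the CDK inhibitors it was CDKN1A (-0.93), and among the pocket proteins RB1 (0.39). The E2F and DP factors held E2F7 (0.50), TFDP1 (0.22) and TFDP2 (-0.34). The turnover genes held CUL4B (-0.29) and FBXW7 (0.29). The E2F-driven genes held CCNA2 (-0.83), MCM2 (-0.36), MCM3 (0.31), MCM7 (-0.68) and PCNA (0.39). Each value is the log2 fold change with Nutlin-3a under siRFX7 minus that under siControl. The calls of RB1 and FBXW7 were lost with equal total counts and with median centring.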

How the results depend on the processing

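Of 182 alternative values for single members, 164 kept their direction and their side of the threshold, 13 lost the call, 3 gained it and 2 reversed. The reversed value was the siRFX7 effect on CCNE1 in DMSO, which was not called in any setting (0.052 with equal total counts and 0.029 with median centring). With equal total counts the siRFX7 effect on CCND1 in DMSO was -0.08 and was no longer counted. CCND3 was then called under Nutlin-3a with siRFX7 (-0.18, adjusted p 0.0384). The difference of responses of CDK4 was called both with equal total counts and with median centring. Requiring an absolute log2 fold change of at least 0.58 left 5198 of 10022 and 4830 of 9601 genes for Nutlin-3a under siControl and siRFX7, 1547 of 5811 and 1482 of 5554 for siRFX7 in DMSO and Nutlin-3a, and 544 of 1437 for the difference of responses. It left 0 members called for siRFX7 in DMSO, where 4 had passed the DESeq2 threshold, and 1 for the difference. That 1 member was CCND1 (-0.78), which was chosen for its response, and CDK2 (0.38) was no longer called. CCND1 was also among the 4 in DMSO. Of the pathway genes, the same requirement left 4 of 31 for siRFX7 in DMSO, 8 of 25 in Nutlin-3a and 3 of 12 for the difference. At an adjusted p below 0.01, 863 genes passed for the difference. Equal total counts turned the split of higher and lower genes from 2704 and 3107 to 3391 and 2262 for siRFX7 in DMSO, and from 760 and 677 to 583 and 792 for the difference. Of 277 alternative values for named pathway genes, 234 kept the call and 43 lost it, with 0 reversed. Differences between genes of a family do not move with the scaling. No paired analysis was possible because the tables hold no values per library, and leaving out each replicate was not run for the same reason. Among the members, depth limits precision most for CCNE2 with Nutlin-3a, at 18.3 and 7.41 normalized counts; CDKN2C, at 18.6 and 5.72, had larger standard errors.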
